A study of Mus musculus with 3 samples.

Results

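Expression was described for 30 genes of cholesterol and fatty acid synthesis, chosen by name for their place in the pathway, among the 35824 genes counted in intestinal epithelial cells (IEC) grown with type-3 innate lymphoid cells (ILC3). All 30 were found once in the count table. They comprise 18 sterol enzymes, 6 fatty acid enzymes and 6 genes of control and transport, and the question asked of them was how the sterol branch compared with the fatty acid branch. Small intestinal organoids (SIO), which are cultures of primary epithelium that hold stem, absorptive and secretory cells, were started from female CD45.1 C57BL/6 mice of 6 to 8 weeks by the sample labels, or up to 10 weeks by the series design. Freshly disrupted SIO were mixed with 5000 to 10000 ILC3 sorted from the small intestine of GFP reporter mice aged 6 to 12 weeks, and cultured in Matrigel for 4 days with 20 ng/ml of IL-2, 20 ng/ml of IL-7 and 1 ng/ml of IL-15, after which IEC were sorted for RNA. The single group, IEC + ILC3, holds 3 libraries named A, B and C, which share every one of these conditions, and the labels give A and B as part of the final analysis and C as left out of it, with no reason. Nothing below measures an effect of ILC3, since IEC ONLY libraries were not used here. The labels call the libraries biological replicates without tying them to separate mice or cultures, so any p-value bears only on these libraries.

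Cholesterol is built from acetyl-CoA through mevalonate to isoprenoid units, which are joined into farnesyl diphosphate and squalene, and squalene is closed into a ring and trimmed to cholesterol. Fatty acids are built from the same acetyl-CoA by carboxylation, chain synthesis, elongation and desaturation. Both branches are under SREBP transcription factors, which stay in the endoplasmic reticulum with SCAP and INSIG proteins when sterol is plentiful and are cut free to enter the nucleus when it is scarce, SREBP2 (Srebf2) acting mostly on sterol genes and SREBP1 (Srebf1) mostly on fatty acid genes. The small intestine both takes up dietary cholesterol and makes its own, and dividing and secretory epithelial cells need both lipids for membrane.

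Promoter windows are shown first because the known promoter elements of this pathway, the sterol regulatory element read by SREBP and the CCAAT box read by its partner NF-Y, lie close to the start of transcription. RefSeq windows of GRCm38.p6, running from 250 bases before the start to 50 bases after it, were found for 24 of the 30 genes, with 32 windows in all. Fdft1, Fdps, Scd1, Scd2, Sqle and Stard4 had none. The 250 bases before the start of 4 genes are given on the gene's own strand, 5′ to 3′. Hmgcs1 (chr13:119690101-119690350, plus strand) is shown as the member with the sterol regulatory element searched for, Mvk (chr5:114444019-114444268, plus strand) for its 5 CCAAT boxes, Sc5d (chr9:42264301-42264550, minus strand) for its E-box, and Fasn (chr11:120824548-120824797, minus strand) as a fatty acid enzyme. Capitals mark every match on either strand to 4 motifs. The sterol regulatory element was searched as TCACNCCAC and the E-box as CACGTG. The CCAAT box was searched by the 5 letters of its name, and the GC box of the factor SP1 as GGGCGG. No motif contains another. The GGG that ends the Sc5d line is the first part of a GC box that runs past the start.
Hmgcs1: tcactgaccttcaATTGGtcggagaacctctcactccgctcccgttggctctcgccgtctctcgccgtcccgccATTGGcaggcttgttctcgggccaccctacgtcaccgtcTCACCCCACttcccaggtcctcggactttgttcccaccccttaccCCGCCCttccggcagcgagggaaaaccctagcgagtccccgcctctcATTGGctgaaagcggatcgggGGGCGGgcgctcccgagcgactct
Mvk: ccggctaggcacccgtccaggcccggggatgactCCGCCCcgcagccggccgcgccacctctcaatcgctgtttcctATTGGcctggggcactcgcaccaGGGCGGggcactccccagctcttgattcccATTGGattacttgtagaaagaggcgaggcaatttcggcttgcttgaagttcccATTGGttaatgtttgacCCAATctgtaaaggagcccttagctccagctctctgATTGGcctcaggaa
Sc5d: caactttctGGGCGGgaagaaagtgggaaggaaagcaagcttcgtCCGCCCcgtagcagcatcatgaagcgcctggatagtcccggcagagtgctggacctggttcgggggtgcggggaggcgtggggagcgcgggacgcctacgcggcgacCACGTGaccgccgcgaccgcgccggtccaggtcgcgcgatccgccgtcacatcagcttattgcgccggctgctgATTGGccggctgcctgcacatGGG
Fasn: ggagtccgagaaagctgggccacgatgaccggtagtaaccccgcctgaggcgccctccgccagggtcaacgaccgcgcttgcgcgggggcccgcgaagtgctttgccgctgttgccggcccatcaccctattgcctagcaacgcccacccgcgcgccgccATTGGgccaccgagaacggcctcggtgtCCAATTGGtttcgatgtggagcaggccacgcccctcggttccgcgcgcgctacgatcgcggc

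With the start counted as base 1 and the base before it as -1, the sterol regulatory element of Hmgcs1 lay at -137 to -129, in the stretch between a CCAAT box at -176 to -172 and a GC box at -92 to -87. It was the only match to TCACNCCAC in 24 genes (4.17%), against 1.37% of 10086 tested genes with a window and 1.24% of 32851 windows. CCAAT was found in 20 of 24 genes (83.3%), against 43.4% of tested genes, and by window in 65.6% of the members' 32 against 37.4% of all. It was present in 14 of the 15 sterol enzymes with a window and in 2 of the 4 fatty acid enzymes, Acly and Fasn, in Acly only after the start. GC boxes were also in 20 of 24 genes (83.3%, against 66.3% of tested genes), with 14 of 15 sterol enzymes and 1 of 4 fatty acid enzymes. An E-box was in 5 of 24 genes (20.8%, against 11.5% of tested genes), namely Dhcr7, Hsd17b7, Insig1, Sc5d and Scap. The letters of CCAATTGG in Fasn read as a CCAAT box on both strands and account for 2 of its 3 matches. These are matches of letters in a short window, and a missing match says only that those letters are not in it.

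**Figure D1:**
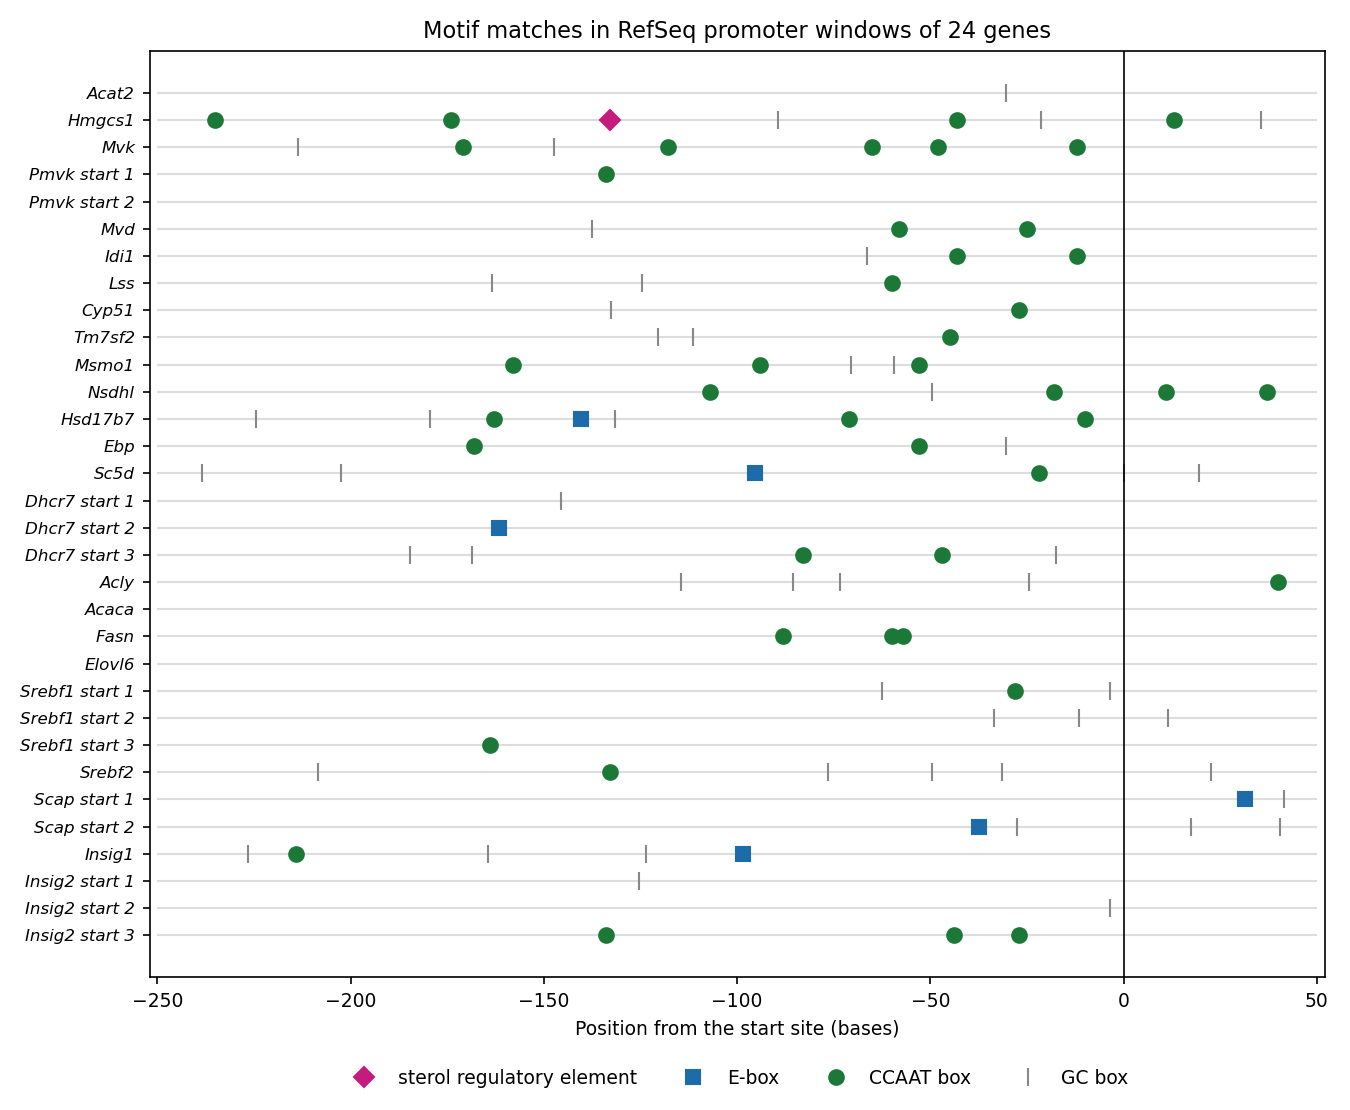
Positions of motif matches in the 32 RefSeq windows of 24 genes, in bases from the start of transcription (vertical line at 0), with 1 row per window, diamonds for the sterol regulatory element, squares for the E-box, circles for the CCAAT box and ticks for the GC box. The lone diamond is in Hmgcs1, Mvk has 5 circles, and the rows of Acaca and Elovl6 are empty.

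Counts are given as CPM, the counts scaled to library size with TMM factors. Library totals were 17946361 in A, 23142849 in B and 28913885 in C, and the lowest count of any member was 575 (Acaca in A). Epithelial markers (Epcam, Cdh1, Vil1, Krt8, Krt18, Krt19) summed to 10503 (A), 11327 (B) and 12281 (C) CPM, so the sorted epithelium carried its defining genes. They did not move together, as C was above A and B in the 3 keratins and below both in Epcam, Cdh1 and Vil1. Epcam was at 1663 (A), 1720 (B) and 1133 (C) CPM. Of the markers of ILC3 and lymphocytes, Ptprc, the pan-leukocyte CD45 gene, was at 1 count in A and 0 in B and C, and Cd3e, Il22, Ncr1 and Il2rb were at 0 in all 3 libraries. All 8 markers of that list summed to 45.6 (A), 37.5 (B) and 33.0 (C) CPM, nearly all from members not named here. The 5 stromal markers summed to 2.54 (A), 5.88 (B) and 0 (C) CPM. Of the markers of fat and liver cells, which make much of the body's lipid, Adipoq and Alb were at 0 in every library. All 4 markers of that list summed to 1.21 (A), 1.90 (B) and 0.767 (C) CPM. In bulk RNA, fewer cells of a type and less RNA per cell cannot be told apart.

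Every sterol enzyme was present in all 3 libraries, from 51.7 CPM (Pmvk in C) to 969 CPM (Fdps in C). Levels are compared between genes as CPM per kb of the longest annotated transcript. Fdps, which makes farnesyl diphosphate at the fork between sterols, ubiquinone and protein prenylation, was the highest of the 30 at 588 ± 97.8 CPM per kb (SD, n = 3), rank 143 of 13555 tested genes with a length. Its level was 735 (A), 735 (B) and 969 (C) CPM. A and B were nearly equal and C was above both, and even the lowest library of Fdps lay over the highest library of every other member per kb. Msmo1, the C4-methyl sterol oxidase, followed at 236 ± 44.1 CPM per kb (SD, n = 3), with 532 (A), 378 (B) and 537 (C) CPM. Acat2, the cytosolic thiolase that condenses acetyl-CoA at the entry of the pathway, was close behind at 235 ± 95.5 CPM per kb (SD, n = 3). Its 419 CPM in A and 390 in B stood against 776 in C, the widest spread among the sterol enzymes.

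The mevalonate enzymes differed widely in level. Hmgcs1, the cytosolic HMG-CoA synthase, was at 662 (A), 520 (B) and 474 (C) CPM, and Idi1, the isopentenyl diphosphate isomerase, at 543, 378 and 437. The 2 kinases and the decarboxylase between them were lower, with Mvk (mevalonate kinase) at 56.4 to 77.4 CPM, Pmvk (phosphomevalonate kinase) at 51.7 to 78.3 CPM and Mvd (the decarboxylase) at 172 to 217 CPM. B differed from A by 0.04, -0.07 and 0.04 on the log2 scale in these 3 genes, and C was the lowest library of each.

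From squalene onward, 3 enzymes followed Msmo1 in level. In CPM per kb, Sqle (squalene epoxidase) stood at 161 ± 23.4, Fdft1 (squalene synthase) at 138 ± 33.7 and Cyp51 (lanosterol demethylase) at 132 ± 13.7 (SD, n = 3 each). The middle of the order held Lss (lanosterol synthase, 71.9), Ebp (a sterol isomerase, 71.6), Nsdhl (a C4 decarboxylase, 62.3), Tm7sf2 (a C14 reductase, 61.97) and Dhcr7 (the last reductase of its route, 57.8). Sc5d (sterol C5 desaturase) at 44.4 and Hsd17b7 (a 3-ketosteroid reductase) at 15.7 CPM per kb closed the list. The steadiest of the 30 genes were also of this stretch. Nsdhl was at 130, 141 and 135 CPM in A, B and C, Hsd17b7 at 75.4, 69.7 and 72.5, and Tm7sf2 at 84.2, 97.9 and 96.4. The 3 libraries of each lay within 0.22 on the log2 scale.

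Among the fatty acid enzymes, Scd2, a stearoyl-CoA desaturase that makes monounsaturated fatty acids, was the highest at 131 ± 47.6 CPM per kb (SD, n = 3), between Cyp51 and Mvd in the order. It was at 752 (A), 957 (B) and 441 (C) CPM. Its neighbour on chromosome 19, Scd1, which does the same reaction, was lower at 38.8 ± 14.98 CPM per kb (SD, n = 3), with 259 (A), 188 (B) and 114 (C) CPM. Library C was the lowest for both, while A and B stood in opposite order, and per kb Scd2 exceeded Scd1 by 2.57 times in A, 4.50 in B and 3.41 in C. Acly, the citrate lyase that supplies cytosolic acetyl-CoA to both branches, was at 252 (A), 210 (B) and 200 (C) CPM (49.9 ± 6.26 CPM per kb, SD, n = 3). Elovl6, which elongates palmitate, was at 119 to 158 CPM. The enzymes that build the chain itself were low per kb, with Fasn (fatty acid synthase) at 154, 175 and 123 CPM (14.98 ± 2.59 CPM per kb, SD, n = 3). Acaca, the acetyl-CoA carboxylase of the committed step, was the lowest of the 30 at 3.57 ± 0.693 CPM per kb (SD, n = 3), rank 8258, with 31.7, 28.8 and 41.4 CPM.

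Of the control genes, Srebf2 was above Srebf1 per kb in every library, by 1.18 times in A, 1.37 in B and 1.29 in C. Srebf1 was at 130 (A), 146 (B) and 73.4 (C) CPM, and Srebf2 at 182, 237 and 112. Scap, the escort of the SREBPs, was at 52.6, 65.8 and 29.7 CPM. In all 3 genes C was the lowest library and B the highest. The INSIG genes, which retain SCAP in the endoplasmic reticulum, were unequal. Insig1, itself an SREBP target, was at 366, 267 and 279 CPM and exceeded Insig2 by 5.48, 6.56 and 5.01 times per kb, Insig2 being at 66.8, 40.7 and 55.7 CPM. Stard4, a carrier of cholesterol between membranes, was at 282, 214 and 228 CPM. In these 3 genes A was the highest library. Taking the 30 genes in order of mean CPM per kb, 26 of 29 neighbouring pairs overlapped in range over the 3 libraries, and ranges were apart at 3 places, below Fdps, between Insig1 and Lss, and above Acaca.

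**Figure D2:**
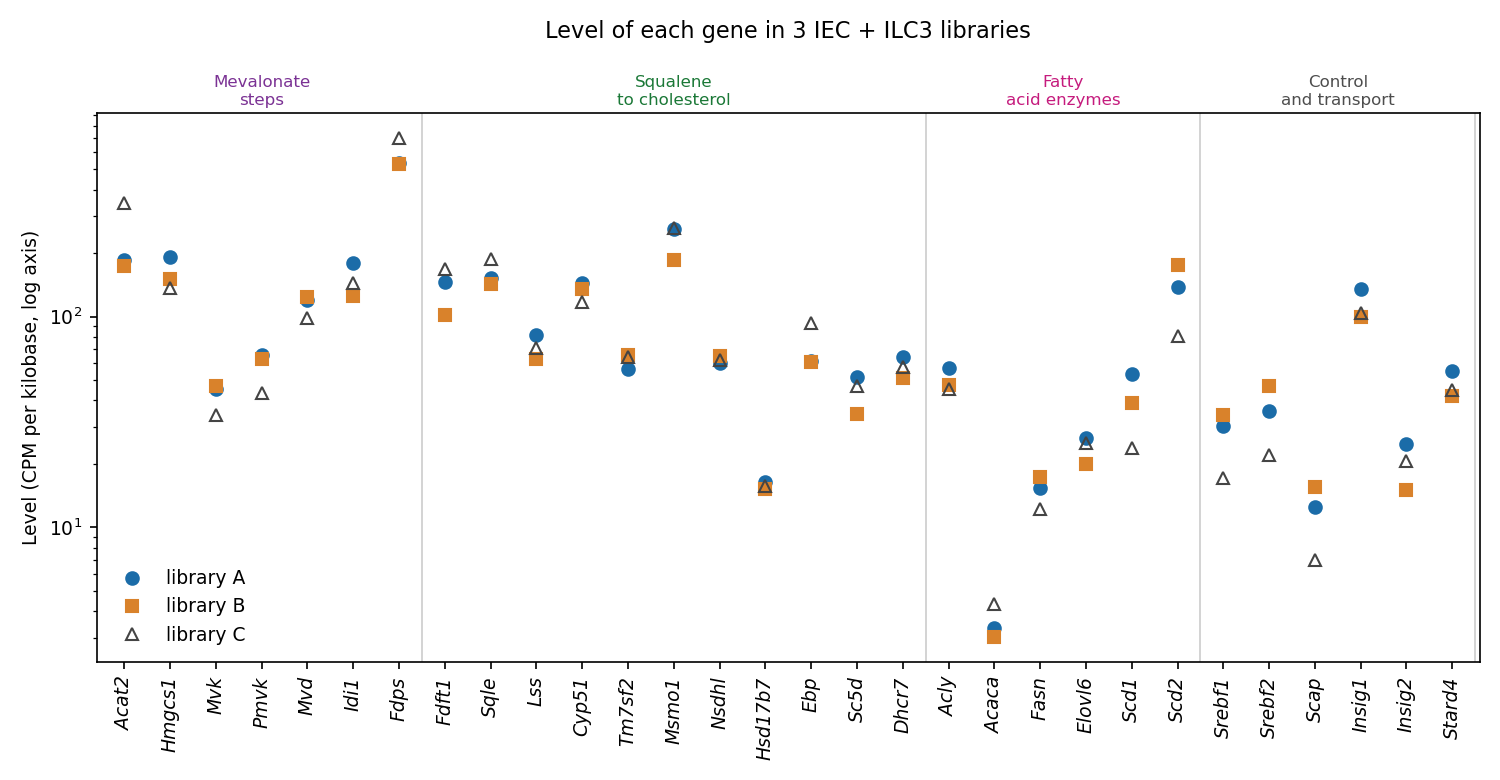
Level of each of the 30 genes in CPM per kb of transcript on a log axis, with 1 symbol per library (circle A, square B, triangle C), in pathway order within each role. Fdps is highest with a mean of 588 and Acaca lowest with 3.57, and the fatty acid enzymes other than Scd2 have means of 49.9 or less.

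The sterol branch was the higher of the pair in every library. The mean log2(CPM per kb + 1) of the 18 sterol enzymes was 6.66 in A, 6.48 in B and 6.64 in C (6.59 ± 0.10, SD, n = 3). That of the 6 fatty acid enzymes was 4.95, 4.83 and 4.56 (4.78 ± 0.20, SD, n = 3). The lowest sterol value lay above the highest fatty acid value, and the difference was 1.71 in A, 1.65 in B and 2.08 in C, which is 1.81 ± 0.23 (SD, n = 3) over the libraries and 1.68 ± 0.05 (SD, n = 2) over A and B. As a ratio of mean levels on this scale it ran from 3.13 to 4.23 times. Summed CPM per kb gave 2414, 2131 and 2648 for the sterol enzymes against 294, 302 and 191 for the fatty acid enzymes, a ratio of 8.22 in A, 7.05 in B and 13.8 in C (9.71 ± 3.63, SD, n = 3). These sums run over 18 genes against 6, so their ratio also carries the difference in gene number, which the means do not. No test was made, since enzymes of a branch are not replicates. The size of the gap depended on the division by length, the transcripts of Fasn and Acaca being the longest of the 30 at 10050 and 9513 bases. On plain CPM the mean log2 difference was 0.54 and the ratio of sums 4.20.

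The branches also differed in which library was extreme. Sterol enzymes summed to 5990 (A), 5086 (B) and 6253 (C) CPM, so B was lowest and C highest. Fatty acid enzymes summed to 1607, 1677 and 1068 CPM, with C lowest, and most of its distance from A and B lay in the desaturases. Scd1 and Scd2 together were at 1011, 1145 and 555 CPM, while the other 4 enzymes together were at 596, 533 and 513, and the share of the desaturases was 62.9% in A, 68.2% in B and 51.96% in C. Control and transport genes averaged 5.25, 5.14 and 4.73 on the log2(CPM per kb + 1) scale, also lowest in C.

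**Figure D3:**
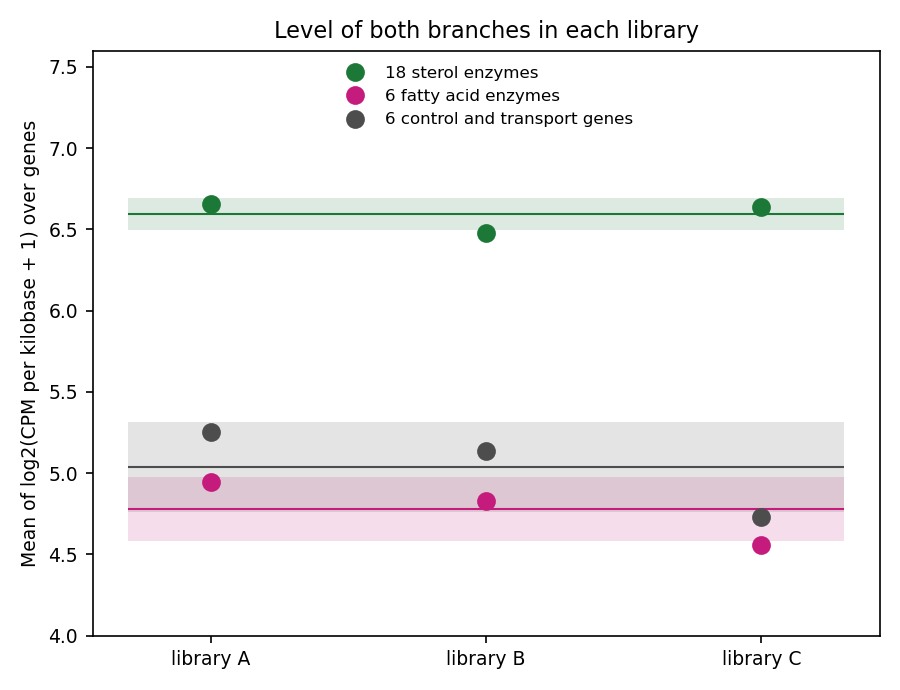
Mean log2(CPM per kb + 1) over the 18 sterol enzymes, 6 fatty acid enzymes and 6 control and transport genes in libraries A, B and C (points), with a line at the mean of the 3 libraries and a band of 1 SD on each side. Sterol enzymes sit at 6.48 to 6.66 and fatty acid enzymes at 4.56 to 4.95, with no overlap, on an axis that starts at 4.

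Between libraries A and B, the pair kept in the final analysis, B was above A in 9 of the 30 genes and below it in 21, where B was above A in 49.7% of all 13604 tested genes. Among sterol enzymes 14 of 18 were below A, with a median log2 difference of -0.11, and among fatty acid enzymes 4 of 6, with a median of -0.20, while the median of all tested genes was 0.00. B lay farthest below A in Insig2 (-0.70), Sc5d (-0.59), Idi1 (-0.52) and Fdft1 (-0.51), and farthest above it in Srebf2 (0.38), Scd2 (0.35) and Scap (0.32). With 1 library on each side these are values without a replicate check. Over the 3 libraries the median SD on the log2 scale was 0.24 for sterol enzymes, 0.26 for fatty acid enzymes and 0.44 for control and transport genes, beside 0.40 for all tested genes and 0.35 for tested genes with a mean of at least 10 CPM.

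Library C was then set against A and B, as the labels separate it. By edgeR's quasi-likelihood test, 0 of the 30 members reached a Benjamini-Hochberg adjusted p under 0.1, the threshold of the study, where 6.56% of all tested genes did (892 of 13604, with 1.36% higher and 5.2% lower in C). At an unadjusted p under 0.05 there were 6 of 30, against 22.3% of tested genes (8.25% higher and 14% lower in C). With 1 residual degree of freedom and C taken to vary like A and B, this compares libraries and not conditions.

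Those 6 were 1 sterol enzyme above A and B in C, 2 fatty acid enzymes and 3 control genes below. Acat2 (GRCm38 chromosome 17, 12942890 to 12960747, minus strand) differed by a log2 fold change of 0.94 (SE 0.28, edgeR adjusted p = 0.111). Scd1 (chromosome 19, 44394455 to 44407879, minus strand) differed by -0.97 (SE 0.33, edgeR adjusted p = 0.145), and Scd2 (chromosome 19, 44293674 to 44306864, plus strand) by -0.96 (SE 0.32, edgeR adjusted p = 0.138). The desaturases are the last step toward oleate and palmitoleate. Srebf1 differed by -0.91 (SE 0.30, edgeR adjusted p = 0.134), Srebf2 by -0.90 (SE 0.32, edgeR adjusted p = 0.154) and Scap by -0.998 (SE 0.33, edgeR adjusted p = 0.138). In these 6 genes C lay outside the range of A and B, which picking them by this contrast favours, so it adds no support. DESeq2's Wald test with its own adjustment at 0.1 passed 5 of them, all but Scap, where it passed 11.9% of tested genes. Without a filter on low counts edgeR passed all 6 (13.8% of genes), and with at least 10 counts in every library it passed Acat2, Scd1, Srebf1 and Srebf2 (9.17%).

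The other 24 genes had adjusted p-values from edgeR of 0.236 (Ebp) to 0.998 (Hsd17b7). Ebp was at 107, 106 and 162 CPM, a log2 fold change of 0.61 (SE 0.27). Pmvk was the farthest below after the 5 named, at -0.57 (SE 0.30), with Mvk at -0.43 (SE 0.29) and Fasn at -0.42 (SE 0.29). By position alone, C was above both other libraries in 7 of the 30 genes and below both in 12, where these shares were 37.3% and 41.2% of all tested genes. Sterol enzymes were above in 6, below in 5 and between in 7. Within them the mevalonate steps were above in 2 and below in 4 of 7, and the steps from squalene on were above in 4 and below in 1 of 11. Fatty acid enzymes were above in 1 (Acaca) and below in 4 of 6, and control and transport genes above in 0 and below in 3 of 6.

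Median log2 fold changes of C against A and B were -0.004 for sterol enzymes (-0.31 for the mevalonate steps and 0.08 for the steps from squalene on), -0.32 for fatty acid enzymes and -0.54 for control and transport genes, beside -0.10 for all tested genes and 0.04 for tested genes with a mean of at least 10 CPM. Set against A alone the sterol median was -0.10 and against B alone 0.17, while the fatty acid median was -0.33 and -0.29. Removing a trend with transcript length moved the fatty acid median to -0.08, and removing one with GC content moved it to -0.14. Control and transport genes kept medians of -0.45 and -0.46 under these changes.

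**Figure D4:**
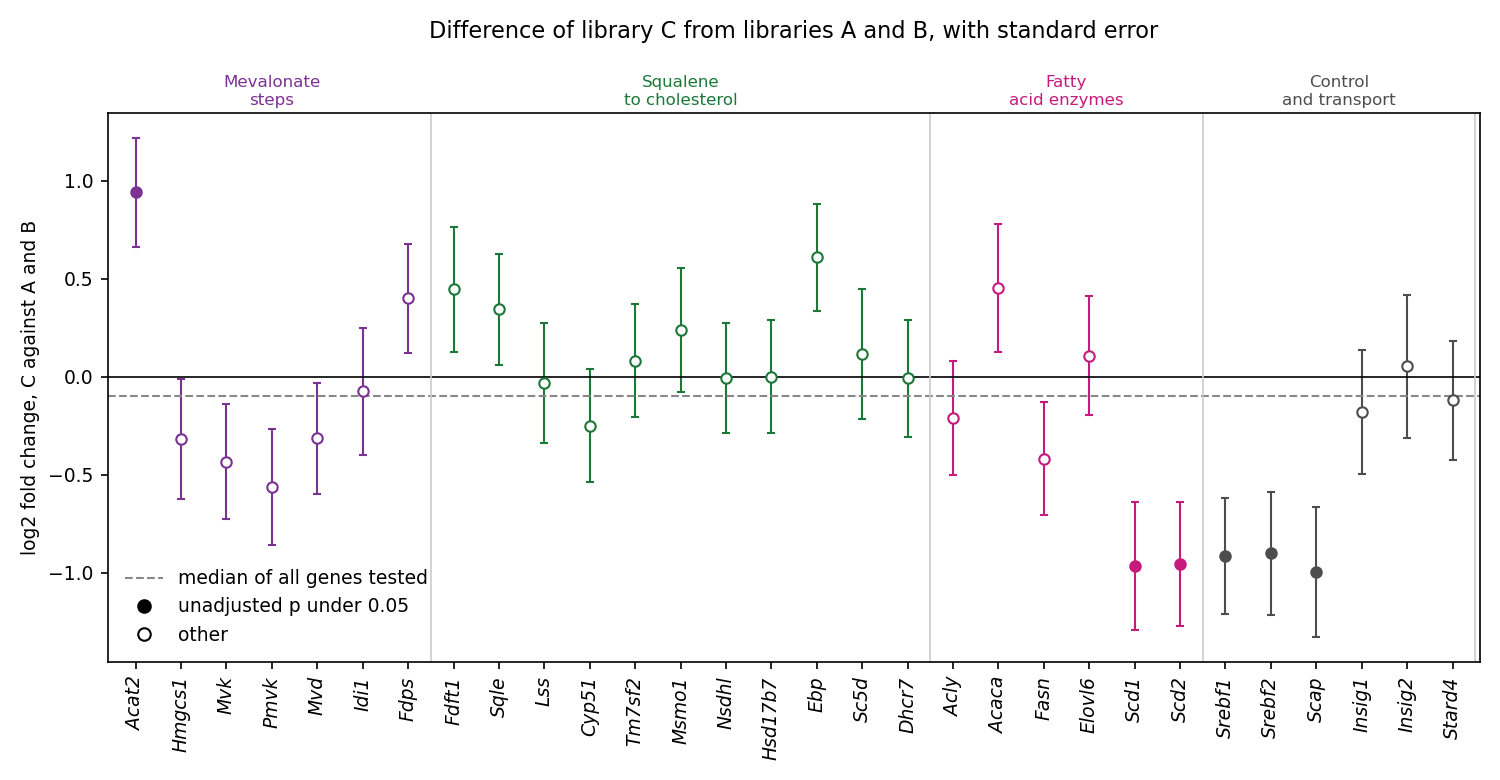
Log2 fold change of library C against A and B for the 30 genes by role, with bars of 1 SE from the edgeR fit, filled points for an unadjusted p under 0.05, and a dashed line at the median of all tested genes (-0.10). Acat2 stands at 0.94, while Scd1, Scd2, Srebf1, Srebf2 and Scap stand between -0.90 and -0.998.

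Base composition was set beside these differences. The transcripts of 8 genes (Mvk, Pmvk, Mvd, Tm7sf2, Fasn, Srebf1, Srebf2 and Scap) had a GC content above 55%, a limit set after the values were seen, running from 56.5% to 59.6%. C was below A and B in 7 of these and between them in Tm7sf2, with a median log2 fold change of -0.50. The other 22 genes, at 41.9% to 54.5% GC, had C below in 5, above in 7 and between in 10, with a median of -0.004. Over all tested genes C was below both in 41.2%, and no share was taken over tested genes above 55% GC. Outside the 30, genes above 55% GC went either way, as with Krt19 (57.6% GC, log2 fold change 0.42) and Por (58.3% GC, -1.13). Across the 30 genes Spearman's rho of log2 fold change with GC content was -0.34, against -0.12 across 13555 tested genes, and with transcript length -0.24 against -0.15. All points share the same 3 libraries, so these are descriptions. With the GC trend removed, Srebf1, Srebf2 and Scap had log2 fold changes of -0.64, -0.63 and -0.71 and Mvd moved from -0.31 to -0.03, while Scd1 (47.1% GC) and Scd2 (49.5% GC) had -1.01 and -0.98.

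**Figure D5:**
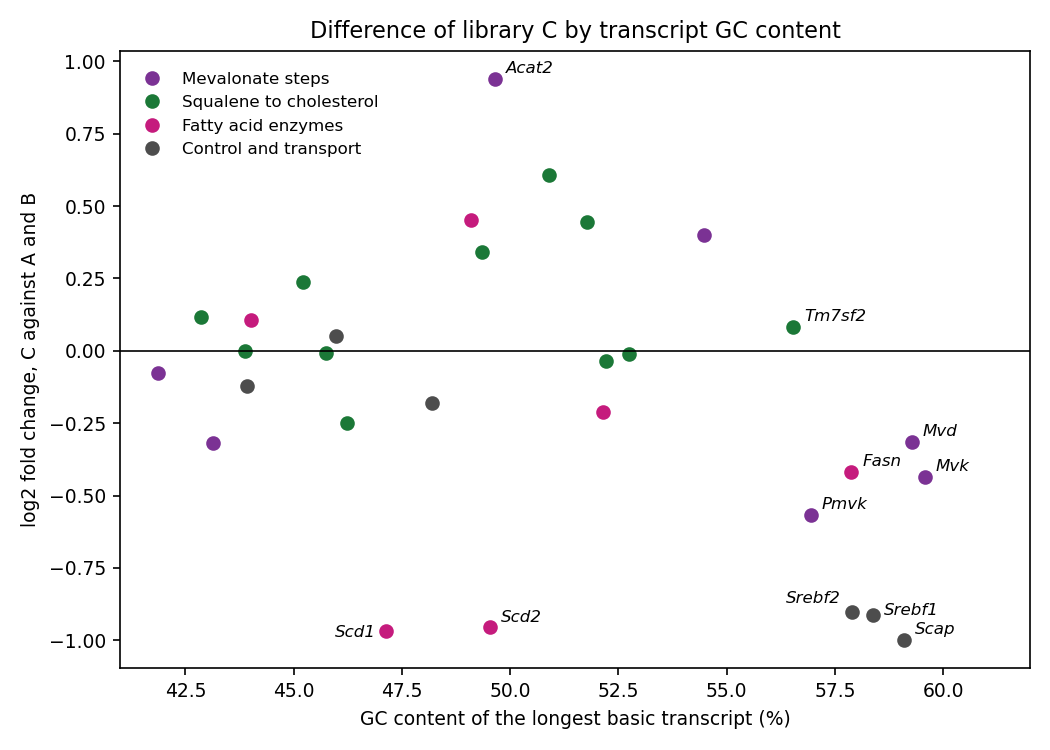
Log2 fold change of library C against A and B plotted against the GC content (%) of the longest transcript, 1 point per gene, coloured by role. Of the 8 genes above 55% GC all but Tm7sf2 lie below 0, and Scd1 and Scd2 lie near the bottom at 47.1% and 49.5% GC.

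Markers of epithelial cell types also moved with library C. The 4 goblet cell markers (Muc2, Tff3, Fcgbp, Clca1) summed to 1745 (A), 2301 (B) and 915 (C) CPM, and 3 of the 4 passed the edgeR test, all lower in C. Paneth markers summed to 8098, 10576 and 12516 CPM with 0 of 4 passing, enterocyte markers to 5649, 3944 and 5260 CPM with 0 of 8, stem cell markers to 6857, 8676 and 6936 CPM with 0 of 4, and proliferation genes to 1097, 1174 and 1237 CPM with 0 of 6. With DESeq2, 2 Paneth markers passed, Itln1 and Mptx2, both higher in C, and 2 enterocyte markers passed in opposite directions, Fabp1 with a log2 fold change of 1.06 in edgeR and Sis with -1.17. The same 4 had an unadjusted p under 0.05 in edgeR, while for stem cell markers and proliferation genes both counts were 0. The rise of the Paneth sum was not shared by all its markers. Lyz1 was lowest in C, at 3218 (A), 3626 (B) and 2636 (C) CPM, and for Mmp7 C lay between A and B. The sum of the goblet markers was highest in B and lowest in C. The same order held for Scd2, Srebf1, Srebf2, Scap, Fasn, Mvk and Mvd, but Muc2 and Scd1 were highest in A. The sum of the enterocyte markers was lowest in B, as was that of the sterol enzymes, but Sis and Mttp were lowest in C. The part of base composition and of cell types in the differences above was not tested.

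Neighbouring steps outside the 30 genes were looked up from 4 further lists, 74 genes in all, of which 69 were tested and 3 passed at an adjusted p of 0.1 (6.56% of all tested genes), all 3 lower in C. None of 9 genes of sterol branch points and electron supply passed, and 1 had an unadjusted p under 0.05 in edgeR and 1 passed DESeq2. Among the most abundant per kb were Cyb5r3 (206 ± 48.5) and Por (89.5 ± 38.3), which hand electrons to sterol oxidases (SD, n = 3 each). Por was at 333, 243 and 131 CPM in A, B and C, without passing (edgeR adjusted p = 0.108). Of 14 genes of SREBP processing and sterol sensing none passed edgeR, with 1 at an unadjusted p under 0.05, and none passed DESeq2. Vcp (209), Pgrmc1 (118) and Aup1 (90.8 CPM per kb) were the most abundant.

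Of the genes that passed, 2 of 16 tested were of uptake, esterification and efflux and 1 of 30 was of fatty acid supply, elongation and glycerolipid steps. Npc1l1, the sterol importer of the brush border, was at 157, 141 and 55.3 CPM, a log2 fold change of -1.43 (SE 0.30, edgeR adjusted p = 0.0562). It lay lower in C than in either other library. Npc2, a lysosomal sterol carrier, was level at 187, 186 and 178 CPM. Acsl3, an acyl-CoA synthetase of lipid droplets and the endoplasmic reticulum, was at 90.8, 98.8 and 42.9 CPM, a log2 fold change of -1.14 (SE 0.30, edgeR adjusted p = 0.0940), and was the gene of the fatty acid list that passed. The most abundant of the fatty acid list were Tecr (308 CPM per kb), the reductase of elongation, Pgd (284), a source of NADPH, and Slc25a1 (248), the carrier that exports mitochondrial citrate. Each of these 3 stood above Scd2, the highest of the 6 fatty acid enzymes, in mean CPM per kb. Both Npc1l1 and Acsl3 missed the threshold under at least 1 other setting, with edgeR adjusted p-values of 0.102 for Npc1l1 and 0.1405 for Acsl3 with the length trend removed, and 0.102 for Acsl3 with DESeq2 size factors.

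Some members share sequence with other genes, and how reads were divided among them rests on the authors' quantification. Of the 31-base words of the longest Fdps transcript 89.7% also occur in other genes, of Acaca 56.8%, of Acat2 50.5%, of Fdft1 36.8% and of Idi1 32.0%. The partners of Fdps with over 5% of its words summed to at most 0.779 CPM, and Gm5182, the partner of Acaca, to at most 0.244 CPM. Acat3, which shares the 50.5% with Acat2, was at 0.221, 0.0865 and 0.523 CPM, and the second partner, Tcp1, holds 15.3% of the words. Acat3 and Tcp1 together summed to 439 (A), 515 (B) and 467 (C) CPM, so Acat2 shares words with an abundant gene. Gm13502, which holds 21.9% of the words of Idi1, was at 3.37 (A), 38.1 (B) and 14.2 (C) CPM, and Idi1 itself was lowest in B. Fdft1 overlaps Ctsb on the opposite strand over 774 bases of exon, and without strand in the libraries, reads from the overlap cannot be told apart, Ctsb being at 662, 546 and 661 CPM. Tm7sf2 overlaps Vps51 on the same strand over 532 bases. Scd1 shares 5.26% of its words with Scd2, and Scd2 4.66% with Scd1.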

How the data were processed

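RNA-seq of IEC sorted from SIO after co-culture with ILC3 was analysed in 3 libraries of 1 group, taken from the sample labels. Libraries were prepared with SMART-Seq2 and sequenced on an Illumina instrument. The authors trimmed reads with Trimmomatic 0.39, quantified transcripts with Salmon 0.14.1 and summed them to genes, and deposited estimated counts for each Ensembl gene as whole numbers, which were used unrounded. Of 35824 genes, 35506 received a symbol from GENCODE M21 (GRCm38), and the other 318 (0.0454% of any library's counts or less) stayed in the totals. Length is that of the longest basic transcript.

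Counts were scaled with TMM, and C was compared with A and B over the 13604 genes kept by filterByExpr with edgeR 4.0.16 in R 4.3.3 (quasi-likelihood test, Benjamini-Hochberg adjustment over all genes tested, threshold 0.1). SE was taken as |log2 fold change| over the root of the F statistic. It ran from 0.274 to 0.365 in the 30 genes. With 1 residual degree of freedom, SE and p rest largely on a spread pooled over genes, not on that of each gene. Levels used a pseudocount of 1. The fit was also run on simulated data drawn from its own dispersion. The planted changes were larger than the differences of the 30 genes, so that run does not bear on differences of their size. Totals of 17946361 to 28913885 counts set the precision, and this covers counting error only, since reads carried no molecular identifiers. All 30 genes are named. Full values were given for those passing the test, the 3 highest of each branch, the control and transport genes, and the 3 with the widest and the narrowest range, and for other lists the genes passing and the 3 most abundant of each. Alternatives were DESeq2 1.42.0 (size factors, Wald test), plain totals, other filters, thresholds, pseudocounts and branch summaries, length or GC trends removed (loess, span 0.5), and libraries left out. Members and lists were chosen with earlier results of these data known. Some genes of the other lists are not reported here.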

Additional observations from a re-analysis of the deposited data

How the results depend on the processing

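The direction of the branch comparison held under every alternative run, with the sterol enzymes above the fatty acid enzymes. On the log2 scale the difference was 1.81, moved to 0.54 without division by length and to 2.10 without the most abundant member of each branch (Fdps and Scd2), and ran from 1.68 to 1.90 with 1 library left out in turn. The ratio of sums, taken over branches of unequal gene number, was 9.71. It became 4.20 and 14.1 under the same changes and ran from 7.64 to 11.04 with 1 library left out, the lowest value being that without C. An alternative chosen after seeing the data, the mean length of the basic transcripts, gave 1.78 and 9.32. The count of members passing in C against A and B was 0, and became 6 without a filter on low counts, 4 with at least 10 counts in every library and 5 with DESeq2's Wald test. Among the other pathway genes 3 passed, and this became 5 with plain library totals, 7 without a filter, 5 with at least 10 counts in every library, 5 with DESeq2's Wald test, 1 with the length trend removed and 0 at a threshold of 0.05. The median log2 fold change of the sterol enzymes (-0.004) ran from -0.10 without replicate 2 to 0.17 without replicate 1. That of the fatty acid enzymes (-0.32) ran from -0.33 to -0.29, and was -0.078 with the length trend removed and -0.14 with the GC trend removed. Leaving out replicate 3 gives no value for these medians, and leaving out replicate 1 or 2 leaves 1 library against 1 with no test of single genes.

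Of 231 tested values of single genes under alternatives, 199 kept their direction and their side of the threshold, 15 came to pass it, 4 came to miss it and 13 changed sign. No gene whose sign changed had passed the test. Another 12 values, those of Acat2, Scd1, Scd2, Srebf1, Srebf2 and Scap without replicate 1 or 2, have no test. They kept their sign, which was fixed in advance because C lay outside the range of A and B in these genes. With the length trend removed Lss was at 0.19, Tm7sf2 at -0.18, Hsd17b7 at 0.21, Insig2 at -0.0071 and Stard4 at 0.12, and with the GC trend removed Lss was at 0.063, Sc5d at -0.073, Dhcr7 at 0.11, Elovl6 at -0.057 and Insig2 at -0.021. Hsd17b7 was at 0.0040 with DESeq2 size factors, 0.0038 without a filter and 0.0040 with DESeq2's Wald test. The cause of these changes was not tested. No paired analysis was possible because the libraries form 1 group and share no replicate numbers with another. The limits are 3 libraries, 1 residual degree of freedom and no replicate of C, so differences near 1 on the log2 scale had standard errors of about 0.3.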
